A study of Mus musculus with 36 samples.

Results

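The Cyp2c genes Cyp2c67, Cyp2c68, Cyp2c69, Cyp2c40, Cyp2c38, Cyp2c39, Cyp2c70 and Cyp2c44 were taken by name from the RNA-seq table, in which they are 8 of 16 Cyp2c genes and 8 of 13862 genes in all. The DNase I hypersensitive sites (DHSs) of a window were set beside them, 63 of 98170 that lie between chr19:39502090 and chr19:40298101. The window covers a part of the Cyp2c cluster and the neighbouring gene Pdlim1. Also taken were the 14 DHSs that overlap or lie within 1 kb of a transcription start site (TSS) of one of the 8 genes. RNA-seq and DNase-seq had been performed on the livers of the same 18 male mice after 91 d, with 4 vehicle-treated and 5 phenobarbital (PB)-treated mice in each strain. PB-treated mice drank water holding 0.05% (wt/vol) PB, and vehicle-treated mice drank water alone. B6C3F1 mice are F1 hybrids from a C57BL/6 mother and a C3H/He father, so that both groups carry alleles of the inbred C57BL/6 strain. The C57BL/6 mice came from Taconic at 9 to 11 weeks of age and the B6C3F1 mice from Charles River at 4 to 5 weeks, in separate studies, so that strain cannot be told apart from age at the start, supplier and study. Within a group each mouse carries the final digit of its number in the labels (vehicle 1, 2, 3 and 5, PB 1 to 5).

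Cytochrome P450 enzymes of the Cyp2c family oxidize drugs, steroids, retinoids, bile acids and fatty acids in hepatocytes. PB activates the nuclear receptor CAR, which switches on a set of Cyp2b and Cyp2c genes, while other Cyp2c genes are expressed in liver without a drug and depend on hepatocyte factors such as HNF4A. Several mouse Cyp2c genes are also expressed at different levels in the 2 sexes under the control of growth hormone. The 8 genes are often called constitutive, which here holds only in the sense that their RNA was detected without PB, for Cyp2c69 near the limit of detection. Of the 8, 5 fell with PB in B6C3F1 mice, as described below.

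Of the 8 genes, 7 lie in the Cyp2c cluster of chromosome 19 and Cyp2c44 lies apart at chr19:44005022-44029247 on the minus strand (RefSeq on GRCm38.p6, the assembly that mm10 represents). In order along the cluster, Cyp2c39 spans chr19:39347346-39569568 on the plus strand with a pair of annotated start sites, and Cyp2c38 lies inside that span on the minus strand at chr19:39389556-39463075. Cyp2c67 (chr19:39608858-39649042), Cyp2c68 (chr19:39688836-39741101), Cyp2c40 (chr19:39767073-39812814) and Cyp2c69 (chr19:39842660-39886769) follow side by side on the minus strand, and Cyp2c70 (chr19:40153361-40187286, minus strand) closes the cluster. Each of the 8 genes has 9 exons. The coding sequences of Cyp2c67, Cyp2c68, Cyp2c40 and Cyp2c69 were 96.5% to 98.1% identical to each other, those of Cyp2c38 and Cyp2c39 were 94.2% identical, and Cyp2c70 and Cyp2c44 shared at most 70.2% with any other of the 8. Of all 76-base stretches of mRNA, the length of a read, 36.0% in Cyp2c67, 28.5% in Cyp2c68, 39.6% in Cyp2c69 and 57.8% in Cyp2c40 also occurred in another Cyp2c gene of the RNA-seq table. The share was 1.72% in Cyp2c38 and 1.61% in Cyp2c39, and no such stretch of Cyp2c70 or Cyp2c44 was shared. Reads that could not be placed uniquely had been dropped, so the levels of Cyp2c67, Cyp2c68, Cyp2c40 and Cyp2c69 are uncertain.

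RefSeq promoters were matched for 7 of the 8 genes, 8 promoters in all with 2 for Cyp2c39. The sequences below are the 250 bases up to the annotated TSS on GRCm38.p6, a C57BL/6 genome, written 5' to 3' on the strand of the gene, and capitals mark CAAAGTCCA, a sequence that HNF4 binds. They are shown because they hold this motif, and they belong to the 4 nearly identical genes and to Cyp2c70.
Cyp2c67: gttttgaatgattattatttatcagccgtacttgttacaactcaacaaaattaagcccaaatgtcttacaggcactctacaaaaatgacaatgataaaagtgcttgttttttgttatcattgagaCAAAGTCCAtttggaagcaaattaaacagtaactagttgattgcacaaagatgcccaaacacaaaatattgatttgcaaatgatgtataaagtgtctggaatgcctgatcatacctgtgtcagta
Cyp2c68: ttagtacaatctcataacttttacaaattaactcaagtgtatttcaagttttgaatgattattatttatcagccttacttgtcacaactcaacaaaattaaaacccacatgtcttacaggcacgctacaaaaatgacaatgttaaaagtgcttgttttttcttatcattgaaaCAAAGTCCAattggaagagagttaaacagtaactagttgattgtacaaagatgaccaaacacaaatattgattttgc
Cyp2c40: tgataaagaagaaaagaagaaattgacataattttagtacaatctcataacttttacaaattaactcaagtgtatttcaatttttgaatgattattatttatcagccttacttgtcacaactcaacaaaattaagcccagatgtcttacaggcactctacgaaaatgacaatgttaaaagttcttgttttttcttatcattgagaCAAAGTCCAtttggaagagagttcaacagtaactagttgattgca
Cyp2c69: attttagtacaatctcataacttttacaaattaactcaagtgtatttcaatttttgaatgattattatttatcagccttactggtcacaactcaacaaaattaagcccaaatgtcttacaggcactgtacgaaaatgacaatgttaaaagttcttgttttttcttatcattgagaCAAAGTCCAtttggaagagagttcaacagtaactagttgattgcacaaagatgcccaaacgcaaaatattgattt
Cyp2c70: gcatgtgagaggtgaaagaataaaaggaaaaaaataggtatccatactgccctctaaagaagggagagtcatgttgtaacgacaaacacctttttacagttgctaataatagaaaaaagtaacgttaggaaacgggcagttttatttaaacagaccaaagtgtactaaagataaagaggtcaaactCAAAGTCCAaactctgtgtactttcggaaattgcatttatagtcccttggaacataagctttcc

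The motif, searched on both strands, was found in 5 of the 8 promoters and in 0.384% of the 32851 RefSeq promoters of the same length. Its first base lay 125, 77, 45 and 75 bases before the annotated TSS of Cyp2c67, Cyp2c68, Cyp2c40 and Cyp2c69 and 64 bases before that of Cyp2c70. Allowing any base at 1 position (CAAAGTNCA) added none of the 8 and raised the share of all promoters to 1.19%. The promoters of Cyp2c38 and of Cyp2c39 lacked the motif and held TGTTTAC, which FOXA factors bind and which occurred in 3.17% of all promoters. Both are printed for comparison, with TGTTTAC left in lower case.
Cyp2c38: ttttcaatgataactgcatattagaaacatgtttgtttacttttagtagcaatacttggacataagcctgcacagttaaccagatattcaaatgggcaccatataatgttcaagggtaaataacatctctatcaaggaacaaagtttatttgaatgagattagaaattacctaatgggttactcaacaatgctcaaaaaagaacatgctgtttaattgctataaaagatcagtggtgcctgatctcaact
Cyp2c39 upstream TSS: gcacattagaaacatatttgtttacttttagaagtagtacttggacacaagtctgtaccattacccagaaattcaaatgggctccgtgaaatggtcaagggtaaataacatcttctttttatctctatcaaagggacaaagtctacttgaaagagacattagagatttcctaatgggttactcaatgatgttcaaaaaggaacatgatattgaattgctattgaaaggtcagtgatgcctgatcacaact

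The upstream promoter of Cyp2c39 was 75.8% identical to that of Cyp2c38, and the promoters of Cyp2c68 and Cyp2c69 were 91.3% identical. The nuclear receptor half-site AGGTCA was in 2 of the 8 promoters (Cyp2c70 and the upstream Cyp2c39 promoter) and in 14.0% of all, and the STAT5 motif TTCNNNGAA was in none of the 8 and in 7.02% of all. A motif match describes letters in this window only.

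Reads counted in genes ranged from 23.8 to 30.3 M (megareads) per mouse in RNA-seq, and reads counted in DHSs ranged from 7.01 to 58.1 M in DNase-seq, from 7.01 to 25.7 M in B6C3F1 and from 19.4 to 58.1 M in C57BL/6 mice. All 8 hepatocyte markers were above 0 in every group, and their summed level per mouse, in CPM (the read count of a gene scaled to the library's size), ranged from 87013 to 102837 with vehicle and 83109 to 91767 with PB in C57BL/6 mice. In B6C3F1 mice it ranged from 103907 to 109305 with vehicle and 86377 to 100570 with PB, without overlap, and its part in the lower levels of the listed genes was not tested. None of the 8 markers was called in either PB comparison. The summed levels of the 7 endothelial, 6 macrophage, 6 stellate cell and 5 measured of 6 biliary markers ranged from 370 to 481, 126 to 280, 297 to 469 and 33.5 to 49.9 CPM. None of these genes was called in either PB comparison, which does not show that they were unchanged. One library stood apart: B6C3F1 vehicle mouse 3 had the fewest DNase-seq reads (7.01 M), a pericentral hepatocyte sum of 7256 CPM against 10246 to 10704 in the other 3 mice of its group, a male-biased gene sum of 3443 against 4736 to 5190, and a female-biased gene sum of 63.1 against 14.1 to 27.5. The main results that use it are also given without it below. These are whole-liver samples, in which fewer cells of a type and less RNA per cell cannot be told apart.

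Levels differed widely between the 8 genes. Set per kb of exon, so that genes of different length can be compared, Cyp2c70 was first in all 4 groups, with a median of 374 CPM per kb in vehicle-treated C57BL/6 mice and 437 in vehicle-treated B6C3F1 mice, and Cyp2c69 was last, with medians of 0.403 and 0.247 CPM per kb. In vehicle-treated C57BL/6 mice the order was Cyp2c70, Cyp2c67, Cyp2c44, Cyp2c68, Cyp2c38, Cyp2c40, Cyp2c39 and Cyp2c69, and the only neighbours whose ranges overlapped were Cyp2c40 and Cyp2c39. Exon length was taken over all curated transcripts of a gene together. For Cyp2c39 these are 2 transcripts with 3085 bases, so its place among its neighbours may depend on that choice. In vehicle-treated B6C3F1 mice Cyp2c68 preceded Cyp2c44, Cyp2c39 moved ahead of Cyp2c40 with a median of 18.8 CPM per kb, and ranges overlapped between Cyp2c70 and Cyp2c67 and between Cyp2c38 and Cyp2c39. After PB, overlapping neighbours were Cyp2c67 and Cyp2c68, Cyp2c39 and Cyp2c40, and Cyp2c40 and Cyp2c69 in C57BL/6 mice. In B6C3F1 mice after PB they were Cyp2c67 and Cyp2c44, Cyp2c44 and Cyp2c68, and Cyp2c38 and Cyp2c39.

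**Figure D1:**
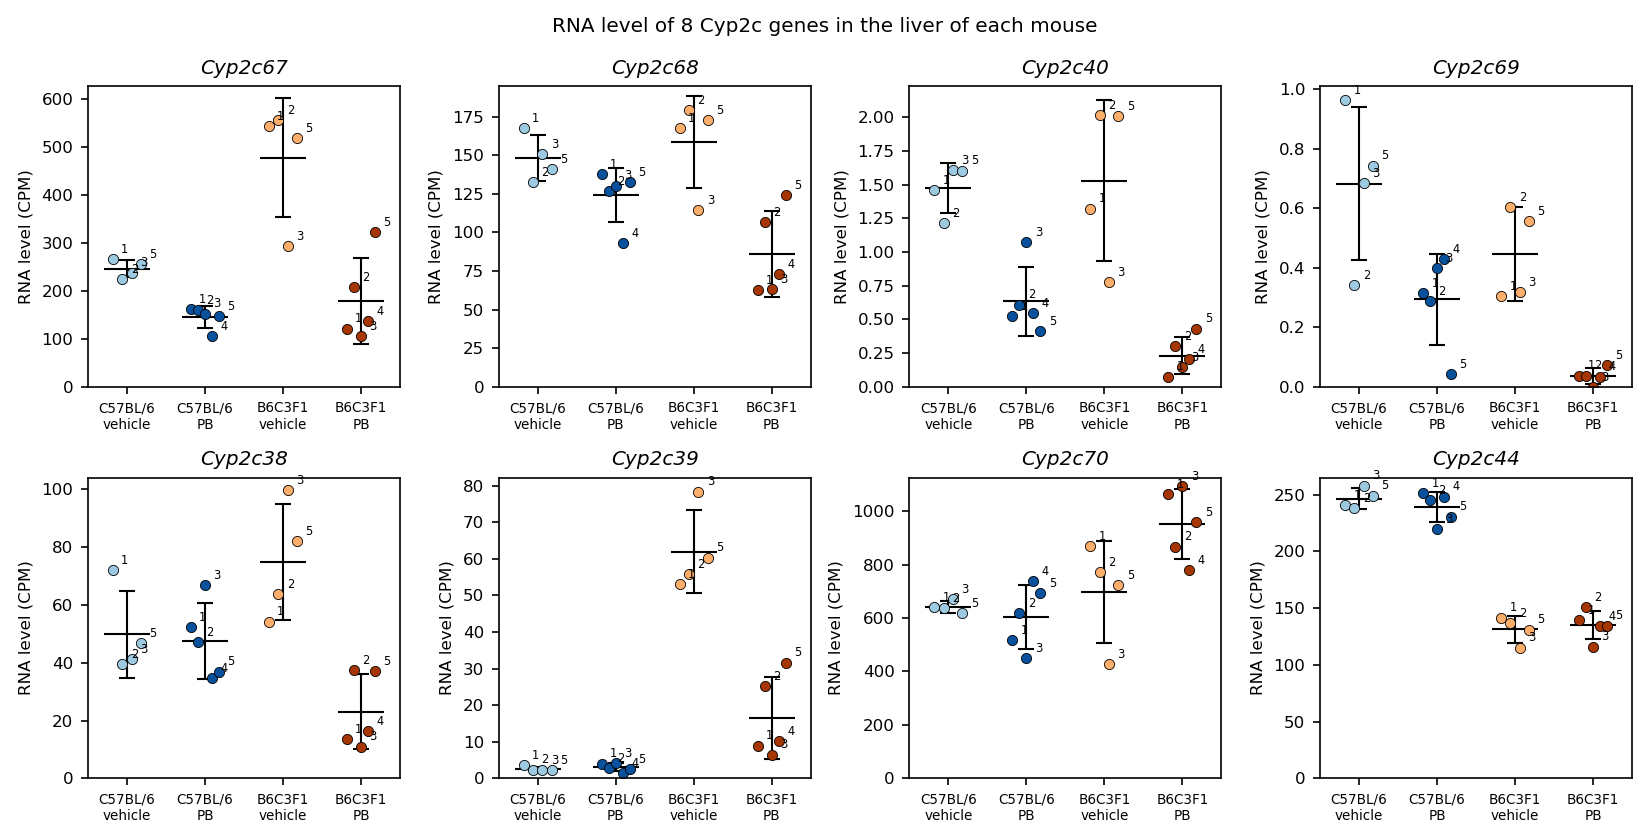
RNA levels of the 8 Cyp2c genes in each of the 18 mice. Each panel is 1 gene, the y axis is CPM on a linear scale from 0, points are mice labelled with their digit, and bars are the mean with its SD for the 4 vehicle-treated or 5 PB-treated mice of each strain. The PB-treated B6C3F1 mice lie below all vehicle-treated B6C3F1 mice for Cyp2c69, Cyp2c40, Cyp2c38 and Cyp2c39, whereas Cyp2c44 is set apart by strain alone.

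The first question was how the 8 genes responded to PB in each strain, tested with limma on log2(CPM + 0.1) and called where the FDR (Benjamini-Hochberg, over 13838 genes) was ≤ 0.01 with |log2 FC| ≥ 0.58. Fold changes are on that scale and understate changes of the low genes Cyp2c69 and Cyp2c40. In B6C3F1 mice 5 of the 8 genes fell with PB, Cyp2c40, Cyp2c39, Cyp2c69, Cyp2c38 and Cyp2c67, against 0.448% of all genes called lower and 2.00% called in either direction. In C57BL/6 mice none of the 8 was called, against 0.874% of all genes. Before adjustment 3 of the 8 had a p under 0.05 in C57BL/6 mice, as had 12.4% of all genes, and edgeR and DESeq2 also called 0. Cyp2c69 was one of the 3. It passed the filter on low values only through the vehicle-treated C57BL/6 mice, so its fall in that strain is favoured by the filter. The median log2 FC of the 8 genes was -0.19 in C57BL/6 and -1.67 in B6C3F1 mice, beside -0.01 over all genes in both.

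Cyp2c67, the most abundant of the 4 near-identical genes, measured 267, 225, 238 and 257 CPM in vehicle-treated C57BL/6 mice 1, 2, 3 and 5 and 162, 159, 152, 105 and 147 CPM in PB-treated mice 1 to 5. These groups did not overlap, yet the difference was not called (log2 FC -0.78 ± 0.29 SE, FDR 0.243). In B6C3F1 mice it measured 544, 556, 294 and 518 CPM with vehicle and 121, 208, 105, 136 and 323 CPM with PB, so that PB mouse 5 lay above vehicle mouse 3. The mean fell from 478 ± 124 (SD, n = 4) to 179 ± 89.6 (SD, n = 5), a log2 FC of -1.50 ± 0.29 and an FDR of 0.00403. Cyp2c68, its neighbour, followed the same mice at a lower level, with 167, 179, 114 and 173 CPM with vehicle and 62.8, 106, 63.1, 72.8 and 124 CPM with PB in B6C3F1. PB mouse 5 again lay above vehicle mouse 3, and the log2 FC of -0.92 ± 0.21 missed the cutoff (FDR 0.0107). Cyp2c68 in C57BL/6 mice measured 168, 133, 151 and 141 CPM with vehicle and 138, 127, 130, 93.2 and 132 CPM with PB, and the groups overlapped (log2 FC -0.26 ± 0.21, FDR 0.712).

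Cyp2c40, which oxidizes arachidonic acid and is higher in female than in male mouse liver, had the lowest FDR of the 8 genes in B6C3F1, although at a level of about 1 CPM. It measured 1.32, 2.02, 0.775 and 2.01 CPM with vehicle and 0.0755, 0.300, 0.144, 0.207 and 0.432 CPM with PB in B6C3F1, with no overlap. The log2 FC was -2.31 ± 0.32 (FDR 3.96e-05), and a comparison of the 175 pooled vehicle and 32 pooled PB reads gave a PB to vehicle ratio of 0.152 (95% interval 0.101 to 0.223, counting error only). Cyp2c40 in C57BL/6 mice went from 1.46, 1.21, 1.61 and 1.60 CPM to 0.526, 0.611, 1.07, 0.546 and 0.415 CPM. These groups did not overlap either, but the log2 FC of -1.15 ± 0.32 was not called (FDR 0.0576). The pooled-read ratio in C57BL/6 was 0.430 (0.326 to 0.566).

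Cyp2c69, another gene higher in females, was near the limit of detection and passed the filter on low values through vehicle-treated C57BL/6 mice alone. It had 9, 18, 9 and 15 reads in the vehicle-treated and 1, 1, 0, 1 and 2 reads in the PB-treated B6C3F1 mice, which is 0.446 ± 0.157 (SD, n = 4) against 0.0363 ± 0.0255 (SD, n = 5) CPM. The groups did not overlap, the log2 FC was -1.98 ± 0.38 (FDR 0.00139), and the pooled-read ratio was 0.0815 (0.0254 to 0.203, counting error only). The reads in C57BL/6 mice were 27, 9, 17 and 19 with vehicle and 9, 8, 10, 11 and 1 with PB. Vehicle mouse 2 (0.341 CPM) lay below PB mice 3 and 4 (0.398 and 0.429 CPM), the log2 FC was -1.05 ± 0.38 (FDR 0.189), and the pooled-read ratio was 0.433 (0.285 to 0.647). As Cyp2c69 passed the filter through the vehicle group of this comparison, these C57BL/6 values are only a description.

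Cyp2c38 and Cyp2c39, the pair that shares a stretch of the chromosome, also fell with PB in B6C3F1 mice. Cyp2c38 measured 54.2, 63.6, 99.6 and 82.2 CPM with vehicle and 13.7, 37.4, 11.0, 16.4 and 37.1 CPM with PB in B6C3F1, with no overlap (log2 FC -1.84 ± 0.37, FDR 0.0051). In C57BL/6 mice it measured 71.9, 39.6, 41.2 and 46.7 CPM with vehicle and 52.3, 47.0, 66.8, 34.5 and 36.9 CPM with PB, and the groups overlapped (log2 FC -0.07 ± 0.37, FDR 0.976). Cyp2c39, which oxidizes retinoic acid, measured 53.2, 55.9, 78.4 and 60.3 CPM with vehicle and 8.95, 25.2, 6.51, 10.2 and 31.6 CPM with PB in B6C3F1. The log2 FC was -2.16 ± 0.42 (FDR 0.00451), without overlap, and PB mice 2 and 5 were the highest of their group, as for Cyp2c38, Cyp2c67, Cyp2c68 and Cyp2c40. Cyp2c39 in C57BL/6 mice stayed between 1.48 and 4.10 CPM in all 9 mice (log2 FC 0.13 ± 0.42, FDR 0.954).

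Cyp2c70, which makes the muricholic acids of mouse bile, and Cyp2c44, which makes epoxides from arachidonic acid, were not called in either PB comparison. Cyp2c70 measured 870, 771, 426 and 722 CPM with vehicle and 1065, 867, 1093, 779 and 958 CPM with PB in B6C3F1, and the log2 FC was 0.49 ± 0.19 (FDR 0.125), or 0.27 (FDR 0.293) without vehicle mouse 3. In C57BL/6 mice it measured 642, 636, 671 and 618 CPM with vehicle and 518, 618, 449, 738 and 693 CPM with PB (log2 FC -0.11 ± 0.19, FDR 0.894). Cyp2c44 varied least, with log2 FC of -0.05 ± 0.07 (FDR 0.874) in C57BL/6 and 0.04 ± 0.07 (FDR 0.775) in B6C3F1 mice.

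The calls in B6C3F1 mice depended on single mice. Leaving out vehicle mouse 2 or 5 or PB mouse 1, 3 or 4 left 2 calls (Cyp2c40 and Cyp2c69, which were called without any 1 mouse), leaving out vehicle mouse 1 left 3, leaving out vehicle mouse 3 left 4, and leaving out PB mouse 2 or 5 gave 6, with Cyp2c68 added. Over these fits the FDR ranged from 0.00029 to 0.0151 for Cyp2c67, from 0.00198 to 0.0183 for Cyp2c38 and from 0.000851 to 0.0155 for Cyp2c39, and all 3 log2 FC stayed at or below -1.34. Without the vehicle mouse 3 that stood apart, the log2 FC was -1.72 for Cyp2c67 (FDR 0.00198), -1.07 for Cyp2c68 (FDR 0.00565), -2.09 for Cyp2c69, -2.58 for Cyp2c40, -1.69 for Cyp2c38 (FDR 0.0183) and -2.04 for Cyp2c39 (FDR 0.0155). With the spread taken from the 9 B6C3F1 mice alone, 2 of the 8 genes were called (Cyp2c40 and Cyp2c69), and with only the 9 C57BL/6 mice 1 was called in C57BL/6, Cyp2c40 at an FDR of 0.00973.

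**Figure D2:**
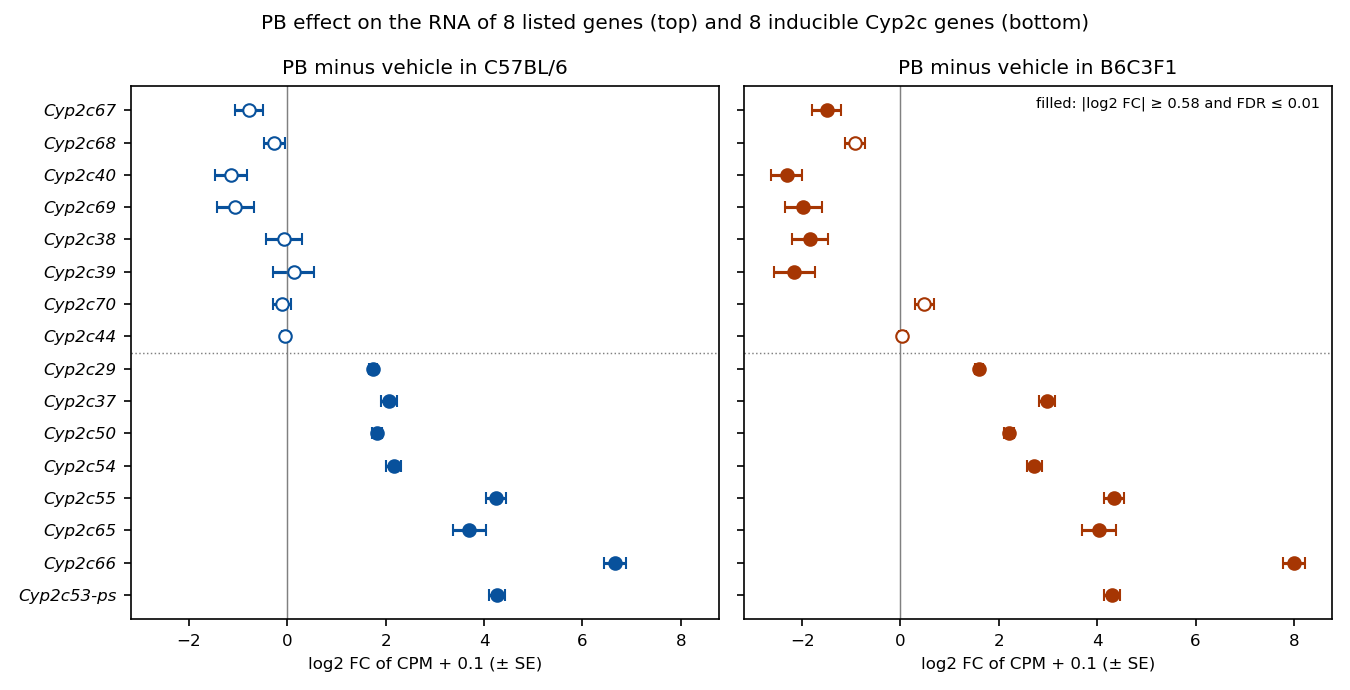
PB effect on RNA in both strains. The x axis is the log2 FC (PB minus vehicle) on the log2(CPM + 0.1) scale with its SE, the left panel is C57BL/6 and the right panel B6C3F1, the 8 listed Cyp2c genes stand above the dotted line and the 8 inducible Cyp2c genes below it, and filled points passed the cutoffs. The 5 filled points among the listed genes are all for B6C3F1 mice and lie between -1.50 and -2.31, and all points below the dotted line are filled and at or above 1.60.

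The other 8 Cyp2c genes in the table all rose with PB in both strains, a contrast that had been used in naming them inducible and is therefore only a description. Their log2 FC ranged from 1.75 (Cyp2c29) to 6.66 (Cyp2c66) in C57BL/6 and from 1.60 (Cyp2c29) to 8.00 (Cyp2c66) in B6C3F1 mice. Between these lie Cyp2c37 (2.06 and 2.98), Cyp2c50 (1.82 and 2.20), Cyp2c54 (2.17 and 2.73), Cyp2c55 (4.25 and 4.34), Cyp2c65 (3.70 and 4.04) and the pseudogene Cyp2c53-ps (4.26 and 4.30), each for C57BL/6 first. The share of all Cyp2c CPM held by the 8 listed genes was 27.4% ± 1.36 (SD, n = 4) with vehicle and 8.10% ± 0.513 (SD, n = 5) with PB in C57BL/6 mice, and 29.5% ± 3.60 and 8.43% ± 0.797 in B6C3F1 mice. Their summed level itself was 1337 ± 52.5 and 1163 ± 89.2 CPM in C57BL/6 and 1604 ± 322 (1762 ± 71.3 without vehicle mouse 3) and 1392 ± 163 CPM in B6C3F1 mice, while the mean sum of the other 8 genes was 3557 and 13202 CPM in C57BL/6 and 3800 and 15117 CPM in B6C3F1 mice.

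Whether the PB response differed between the strains was tested as an interaction, the B6C3F1 log2 FC minus the C57BL/6 log2 FC. None of the 8 genes was called, as was none of the 13838 genes (0%), and edgeR and DESeq2 called none of the 8. The falls in B6C3F1 are therefore not shown to differ from the C57BL/6 response. Before adjustment 5 of the 8 genes had a p under 0.05, as had 7.90% of all genes, and the largest differences were -2.29 ± 0.60 for Cyp2c39 (FDR 0.351), -1.77 ± 0.52 for Cyp2c38 (FDR 0.391) and -1.16 ± 0.45 for Cyp2c40 (FDR 0.519). The differences for Cyp2c70 (0.60 ± 0.27, FDR 0.617) and Cyp2c44 (0.09 ± 0.09, FDR 0.872) were positive. Without B6C3F1 vehicle mouse 3 the differences were -2.17 for Cyp2c39, -1.62 for Cyp2c38, -1.43 for Cyp2c40, 0.38 for Cyp2c70 and 0.02 for Cyp2c44, none of them called.

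The strains were then compared within each treatment, in groups that the PB comparisons also used. With vehicle, Cyp2c39 was higher and Cyp2c44 lower in B6C3F1 mice, 2 of the 8 genes against 3.63% of all genes. With PB, 4 of the 8 were called against 5.25% of all, Cyp2c39 higher and Cyp2c44, Cyp2c69 and Cyp2c40 lower in B6C3F1. Cyp2c39 stood at 3.53, 2.35, 2.25 and 2.23 CPM in vehicle-treated C57BL/6 mice and at 53.2 to 78.4 CPM in vehicle-treated B6C3F1 mice, a log2 FC of 4.54 ± 0.44 (23.2-fold, FDR 6.88e-06). With PB it stood at 3.99, 2.73, 4.10, 1.48 and 2.53 CPM in C57BL/6 and at 6.51 to 31.6 CPM in B6C3F1, a log2 FC of 2.25 ± 0.40 (4.76-fold, FDR 0.000787). Neither pair of groups overlapped. The CPM of Cyp2c39 relative to the overlapping gene Cyp2c38 was 0.0527 ± 0.00536 with vehicle and 0.0615 ± 0.0125 with PB in C57BL/6 mice, and 0.845 ± 0.109 and 0.679 ± 0.102 in B6C3F1 mice. Cyp2c38 itself was not called with vehicle (log2 FC 0.59 ± 0.39, FDR 0.308) or with PB (-1.18 ± 0.34, FDR 0.0197).

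Cyp2c44 measured 241, 238, 258 and 249 CPM with vehicle and 252, 245, 220, 248 and 231 CPM with PB in C57BL/6 mice, against 142, 137, 115 and 131 CPM and 140, 151, 116, 134 and 135 CPM in B6C3F1 mice. No B6C3F1 mouse reached any C57BL/6 mouse, and the log2 FC was -0.91 ± 0.07 with vehicle (FDR 6.75e-09) and -0.83 ± 0.06 with PB (FDR 3.55e-09). With vehicle, Cyp2c67 was 1.88-fold higher in B6C3F1 without overlap (log2 FC 0.91 ± 0.30), which missed the cutoff at an FDR of 0.0479, and Cyp2c68, Cyp2c69, Cyp2c40 and Cyp2c70 had log2 FC of 0.08, -0.50, -0.03 and 0.07, none called. With PB, Cyp2c69 (log2 FC -1.42 ± 0.35, FDR 0.0049) and Cyp2c40 (-1.19 ± 0.30, FDR 0.00546) were lower in B6C3F1 although their ranges overlapped with those of C57BL/6. Cyp2c70 was 1.59-fold higher after PB in B6C3F1 without overlap and missed the cutoff (log2 FC 0.67 ± 0.18, FDR 0.0112). Reads of both strains had been aligned to the C57BL/6 genome, and the part of sequence differences between the strains in these values was not tested.

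The vehicle comparison kept its 2 calls when any 1 mouse was left out, and without B6C3F1 vehicle mouse 3 the log2 FC was 4.42 for Cyp2c39 and -0.85 for Cyp2c44. In the PB comparison the 4 calls became 2 without C57BL/6 PB mouse 2 or 3 or B6C3F1 PB mouse 3, and 6 without B6C3F1 PB mouse 5. The FDR of Cyp2c69 then ranged up to 0.0175 and that of Cyp2c40 up to 0.0215, while Cyp2c39 and Cyp2c44 were called whichever mouse was left out. With the spread taken from the 10 PB-treated mice alone, Cyp2c44 was called and Cyp2c39 was not (FDR 0.0117).

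DNase I cuts DNA where chromatin is open, and the normalized read count of a DHS measures its accessibility in a liver. The 63 DHSs of the window comprised 10 at a TSS, 24 in introns, 3 in exons and 26 between genes, with a median width of 374 bp. The nearest TSS was that of one of the 8 genes for 38 DHSs, that of an inducible Cyp2c gene for 12, and that of Pdlim1 for 13. None of the 38 was nearest to Cyp2c38 or Cyp2c44, as the start sites of both lie outside the window. Testing used limma on log2(normalized count + 1) with the same cutoffs over all 98170 DHSs.

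With PB, accessibility was called lower at 1 and higher at 2 of the 63 DHSs in C57BL/6 mice, 3 against 0.367% of all DHSs, and at none in B6C3F1 mice against 0.190% of all. Both that rose are at inducible genes, in an exon of Cyp2c37 (chr19:40001776-40001984, log2 FC 1.36 ± 0.24, FDR 0.00293) and at the TSS of Cyp2c50 (chr19:40089460-40089853, log2 FC 0.79 ± 0.10, FDR 2.68e-05). The DHS that fell lies in an intron of Cyp2c67 at chr19:39647461-39647923, 1350 bases from its TSS to the middle of the DHS on the downstream side. The 200 bases around its middle (chr19:39647592-39647791, GRCm38.p6, RefSeq, strand of the gene) are printed. They are shown because this DHS was called in C57BL/6 and, without being called, had the lowest FDR of the window in the B6C3F1 PB comparison.
DHS in Cyp2c67: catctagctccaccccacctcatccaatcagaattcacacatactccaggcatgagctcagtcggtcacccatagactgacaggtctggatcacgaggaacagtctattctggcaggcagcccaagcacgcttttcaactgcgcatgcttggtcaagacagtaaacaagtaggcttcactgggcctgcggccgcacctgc

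Its normalized counts were 479, 521, 417 and 476 with vehicle and 330, 346, 316, 238 and 246 with PB in C57BL/6 mice (log2 FC -0.69 ± 0.12, FDR 0.00237). In B6C3F1 mice they were 676, 655, 723 and 906 with vehicle and 220, 435, 341, 325 and 496 with PB (log2 FC -1.07 ± 0.19, FDR 0.0232). Neither strain's groups overlapped, and the change in B6C3F1 was not called although its log2 FC was the larger of both. Without B6C3F1 vehicle mouse 3 it was -1.07 ± 0.23 (FDR 0.0682). PB mice 2 and 5 were highest in the B6C3F1 PB group, as they were for the RNA of Cyp2c67 in the plot of RNA against accessibility. With vehicle, this DHS was more open in B6C3F1 than in C57BL/6 mice (log2 FC 0.64 ± 0.11, FDR 0.000922).

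**Figure D3:**
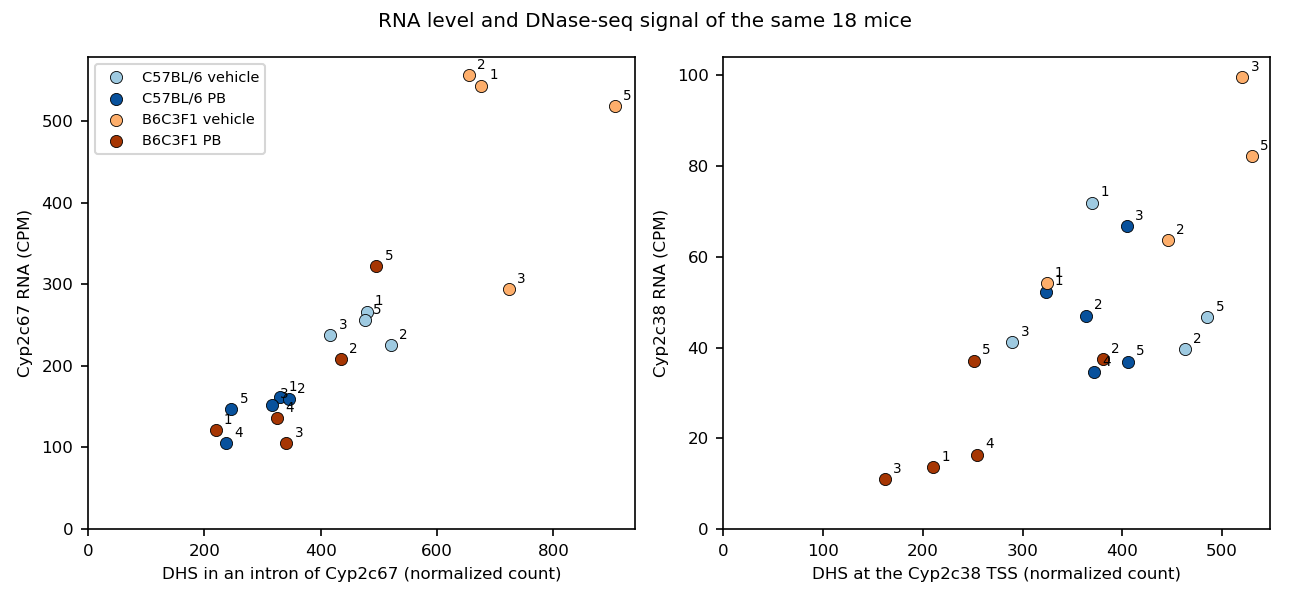
RNA and accessibility of the same livers. The left panel plots Cyp2c67 CPM (y axis) against the normalized count of the DHS in its intron (x axis), the right panel Cyp2c38 CPM against the DHS at its TSS, with 1 point for each of the 18 mice labelled with its digit and coloured by strain and treatment. Vehicle-treated B6C3F1 mice 1, 2 and 5 lie at the upper right for Cyp2c67 and most PB-treated mice of both strains at the lower left, with B6C3F1 PB mouse 5 above the vehicle-treated C57BL/6 mice in RNA.

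The call in C57BL/6 was lost when vehicle mouse 1, 2 or 5 or PB mouse 5 was left out (FDR 0.0124, 0.0217, 0.0122 and 0.0110) and the call in B6C3F1 was gained without PB mouse 1 (log2 FC -0.90, FDR 0.00938) or PB mouse 5 (log2 FC -1.19, FDR 0.00204). With all 18 mice in 1 fit the C57BL/6 change had an FDR of 0.138 and the B6C3F1 change an FDR of 0.00118. Over the 63 DHSs, the calls in C57BL/6 became 1 without vehicle mouse 1 or 2. In B6C3F1, 26 of the 63 DHSs had an unadjusted p under 0.05, against 9.16% of all DHSs, and edgeR also called 0.

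Most DHSs of the window near listed genes had lower counts with PB in B6C3F1, although none was called. Among the 38 DHSs closest to a TSS of a listed gene, 34 had a negative log2 FC in B6C3F1 mice. The median of the 38 was -0.53, against a median of -0.01 over all DHSs. None of the 38 was nearest to Cyp2c38 or Cyp2c44. These DHSs are neighbours measured in the same mice, so the 38 signs are not independent of each other. By gene, the medians were -0.87 over 9 DHSs for Cyp2c67, -0.72 over 4 for Cyp2c68, -0.75 over 4 for Cyp2c40, -0.61 over 5 for Cyp2c69, -0.37 over 6 for Cyp2c39 and -0.18 over 10 for Cyp2c70. In C57BL/6 mice 15 of the 38 were negative and their median was 0.07. The 12 DHSs nearest to inducible genes had medians of 0.44 in C57BL/6 and 0.42 in B6C3F1 mice. The strain difference in the PB response was negative at 36 of the 38 DHSs with a median of -0.55, yet none of the 63 was called, as was none of all 98170 (0%). Without B6C3F1 vehicle mouse 3, 37 of the 38 were negative for PB in B6C3F1 (median -0.60) and 37 for the strain difference in the PB response (median -0.69). Of the 63, 12 had an unadjusted p under 0.05, against 5.39% of all DHSs, edgeR called 0, and the lowest FDR was 0.905.

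**Figure D4:**
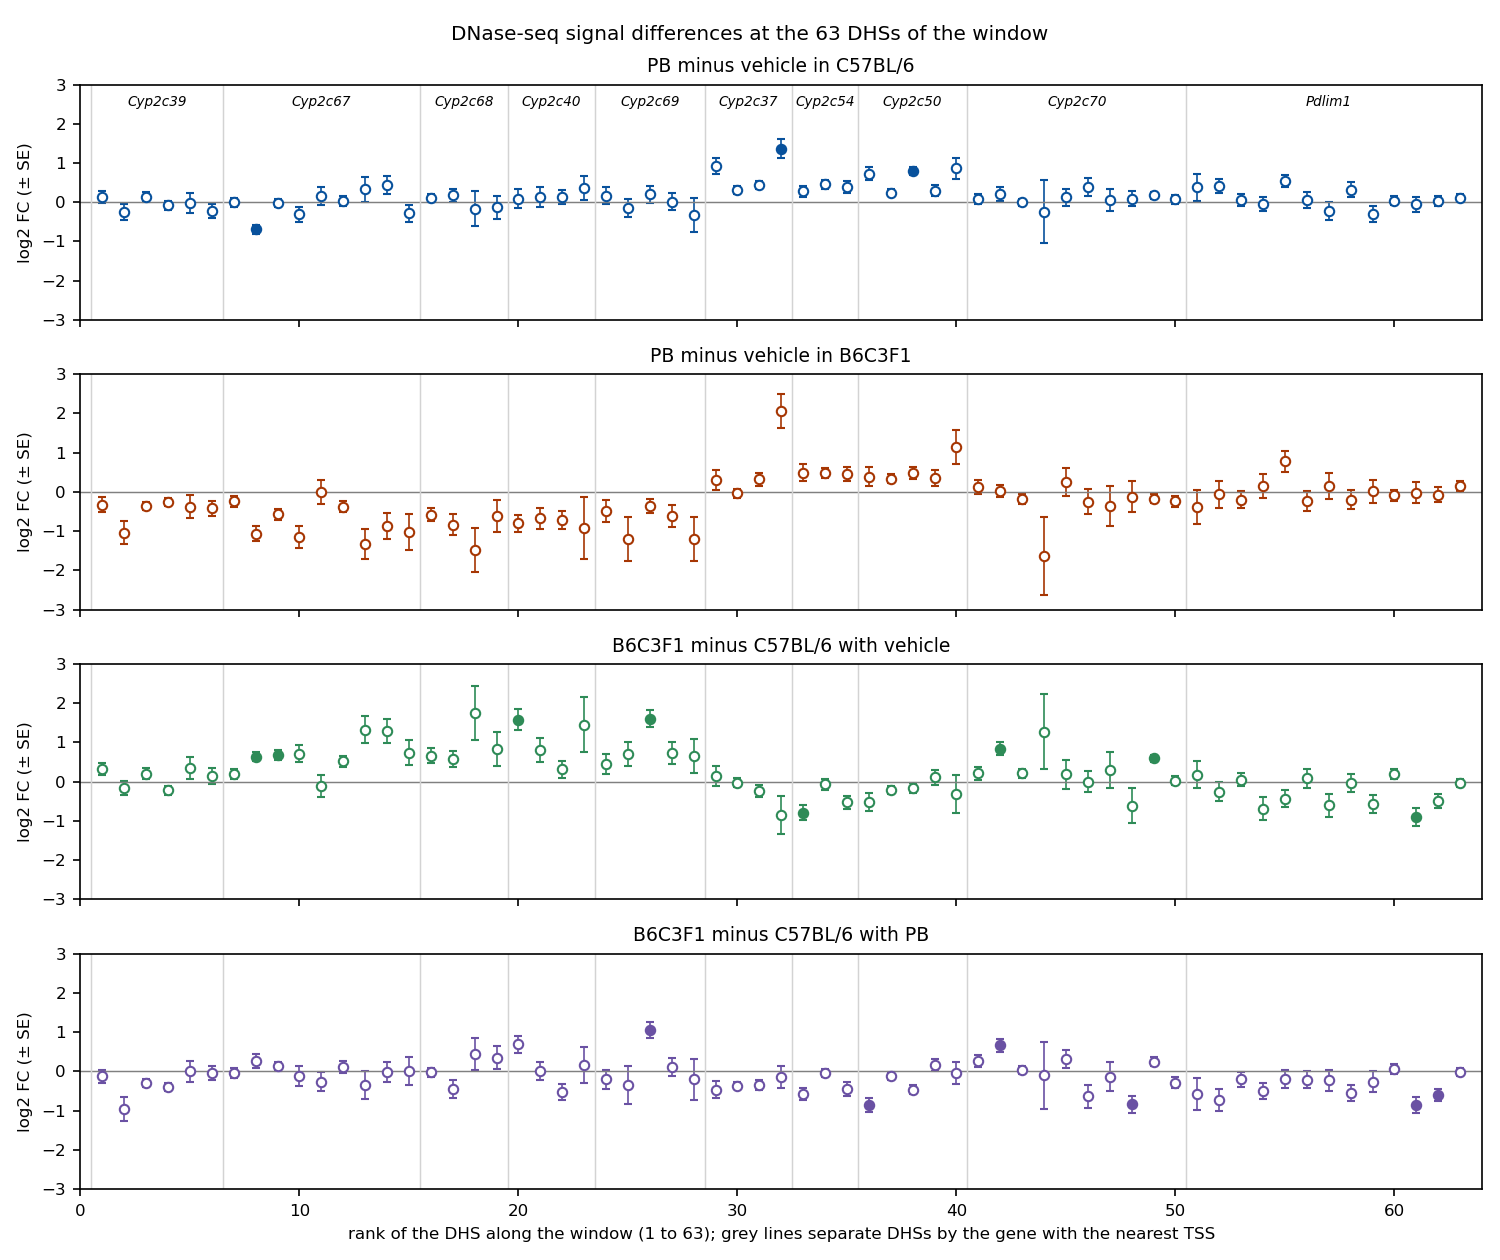
Accessibility differences over the 63 DHSs of the window. The x axis is the rank of the DHS along the chromosome from 1 to 63, the y axis is the log2 FC with its SE, each of the 4 panels is 1 comparison, grey lines separate DHSs by the named gene with the nearest TSS, and filled points passed the cutoffs. In the B6C3F1 PB panel 34 of the 38 DHSs nearest to listed genes lie below 0. In the vehicle strain panel, which shares the B6C3F1 vehicle-treated mice, 34 of the 38 lie above 0. None of the 38 is nearest to Cyp2c38 or Cyp2c44.

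At the start sites, none of the 14 DHSs within 1 kb of a TSS of the 8 genes was called with PB in either strain. Of these, 2 of the 14 in C57BL/6 mice, and in B6C3F1 mice 9 of the 14, had an unadjusted p under 0.05, against 7.76% and 9.16% of all DHSs, and edgeR called 0 in both. The DHS at the Cyp2c38 TSS (chr19:39462979-39463376) had normalized counts of 324, 446, 520 and 530 with vehicle and 211, 380, 162, 254 and 251 with PB in B6C3F1 mice (log2 FC -0.88 ± 0.21, FDR 0.0865). PB mouse 2 had the highest count of its group and also the highest Cyp2c38 RNA (37.4 CPM). PB mouse 5 had nearly as much RNA (37.1 CPM) at a count of 251, beside 16.4 CPM at 254 in PB mouse 4. In C57BL/6 mice the counts were 370, 463, 290 and 485 with vehicle and 324, 363, 404, 371 and 406 with PB (log2 FC -0.08 ± 0.13, FDR 0.95).

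The DHS at the Cyp2c67 TSS (chr19:39648768-39649337) went from 937 ± 148 (SD, n = 4) to 632 ± 121 (SD, n = 5) with PB in B6C3F1 (log2 FC -0.57 ± 0.14, FDR 0.0719, or -0.59 ± 0.15 and 0.113 without vehicle mouse 3) and was 584 ± 85.2 and 570 ± 56.0 in C57BL/6 mice. The Cyp2c68 TSS DHS (chr19:39740728-39741360) went from 796 ± 199 to 525 ± 94.5 in B6C3F1 without overlap (log2 FC -0.59 ± 0.16, FDR 0.185) and was 498 ± 99.3 and 529 ± 39.7 in C57BL/6. The Cyp2c40 (chr19:39812606-39813010) and Cyp2c69 (chr19:39886706-39886962) TSS DHSs had far lower counts, from 44.1 ± 3.92 to 85.0 ± 29.7 over the 4 group means. Counts are not scaled to the width of a DHS. DNase-seq reads of low mapping quality had been dropped, so differences in openness between the near-identical genes are uncertain. Cyp2c70 had one of the highest counts of these start sites (chr19:40187123-40187661), at 790 ± 88.5 and 787 ± 61.4 in C57BL/6 and 926 ± 161 and 814 ± 139 in B6C3F1 mice, with PB log2 FC of -0.00 ± 0.09 and -0.19 ± 0.13.

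**Figure D5:**
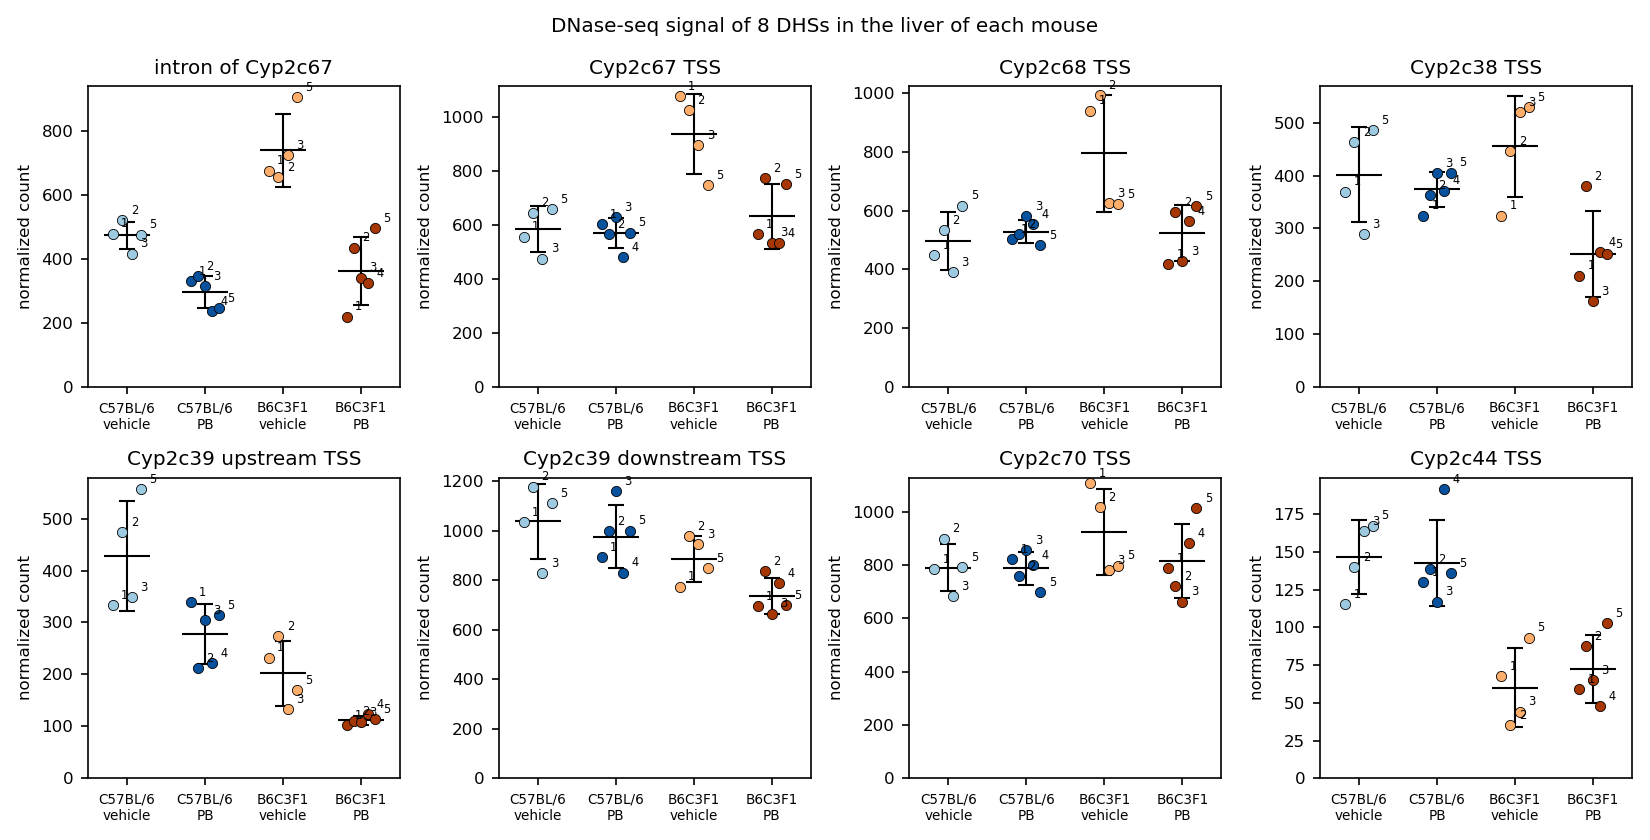
Accessibility of 8 DHSs at or in the listed genes in each of the 18 mice. The y axis is the normalized read count on a linear scale from 0, points are mice labelled with their digit, and bars are the mean with its SD for the 4 vehicle-treated or 5 PB-treated mice of each strain. For the DHS in the Cyp2c67 intron the PB-treated mice of each strain lie below all its vehicle-treated mice.

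Between strains with vehicle, 8 of the 63 DHSs were called against 10.5% of all DHSs, a count near that share. Of these, 6 were higher in B6C3F1 mice, against 6.14% of all DHSs. The nearest TSS was that of one of the 8 genes for all 6, as it was for 38 of the 63 DHSs. The 6 are listed as a description. They are the intronic and TSS DHSs of Cyp2c67 (log2 FC 0.64 ± 0.11 and 0.68 ± 0.13), a DHS in an intron of Cyp2c40 (chr19:39785454-39785797, 1.58 ± 0.26), an intergenic DHS upstream of Cyp2c69 (chr19:39909924-39910288, 1.61 ± 0.22), a DHS in an intron of Cyp2c70 (chr19:40186430-40186834, 0.85 ± 0.17) and a DHS in an intron of Pdlim1 nearest to the Cyp2c70 TSS (chr19:40225344-40226126, 0.60 ± 0.09). Over the 38 DHSs nearest to listed genes (none to Cyp2c38 or Cyp2c44) the median log2 FC was 0.58, with 34 positive. The median over all DHSs was -0.04. Without B6C3F1 vehicle mouse 3 the 38 had a median of 0.61 with 34 positive. This comparison and the PB comparison in B6C3F1 share the same 4 vehicle-treated mice, so their opposite signs are not independent of each other. The DHS upstream of Cyp2c69 had counts of 78.5, 107, 54.8 and 81.9 in C57BL/6 and 249, 312, 266 and 165 in B6C3F1 mice with vehicle, and 66.7, 81.8, 122, 71.7 and 123 against 199, 187, 143, 182 and 244 with PB. It was higher in B6C3F1 under both treatments without overlap (log2 FC 1.06 ± 0.19 with PB, FDR 0.000364), whereas the RNA of Cyp2c69 was not higher there.

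With PB, 6 of the 63 DHSs differed between strains against 9.72% of all, again a count near that share. Higher in B6C3F1 were the DHS upstream of Cyp2c69 and the one in the Cyp2c70 intron (log2 FC 0.66 ± 0.18, FDR 0.00841), and of the 4 lower ones 1 was nearest to one of the 8 genes, in an intron of Pdlim1 (chr19:40222883-40223036, log2 FC -0.83 ± 0.22). That call was lost with all 18 mice in the fit (FDR 0.0663) and without C57BL/6 PB mouse 1, 2, 3 or 4 or B6C3F1 PB mouse 1, 2 or 3, with FDR values of 0.0128 to 0.0255. The call in the Cyp2c70 intron was lost without C57BL/6 PB mouse 1, 2 or 3 or B6C3F1 PB mouse 2, 3 or 4 (FDR 0.0126 to 0.0335), and its call with vehicle was lost without C57BL/6 vehicle mouse 1 (FDR 0.0115). Leaving out C57BL/6 vehicle mouse 1 brought the 8 calls with vehicle to 4, and without B6C3F1 vehicle mouse 3 there were 10. The 6 calls with PB became 2 without C57BL/6 PB mouse 2 or 3, 3 without C57BL/6 PB mouse 1 or 4 or B6C3F1 PB mouse 3, and 10 without B6C3F1 PB mouse 5.

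Of the 14 DHSs at the start sites of the 8 genes, 4 differed between strains with vehicle and 3 with PB, against 10.5% and 9.72% of all DHSs. Those of Cyp2c67 and Cyp2c70 are given above, and the other 2 lie outside the window. At the upstream TSS of Cyp2c39 (chr19:39346993-39347433) counts were 333, 473, 348 and 556 in C57BL/6 and 232, 274, 133 and 170 in B6C3F1 mice with vehicle, and 340, 212, 304, 222 and 314 against 102, 111, 108, 123 and 113 with PB. The DHS was thus less open in B6C3F1 under both treatments (log2 FC -1.10 ± 0.23, FDR 0.00421, and -1.29 ± 0.15, FDR 2.16e-06), while Cyp2c39 RNA was higher there under both. The call with vehicle was lost without C57BL/6 vehicle mouse 2 (FDR 0.0177) or B6C3F1 vehicle mouse 5 (FDR 0.0140). The downstream Cyp2c39 TSS (chr19:39510500-39510955) was more open, at 1037 ± 151 and 976 ± 126 in C57BL/6 and 886 ± 92.9 and 736 ± 72.5 in B6C3F1 mice, and was not called between strains with vehicle (log2 FC -0.22 ± 0.11) or with PB (-0.40 ± 0.10, an FDR of 0.00397 with a change below the cutoff). At the Cyp2c44 TSS (chr19:44029186-44029370) counts were 115, 140, 164 and 168 in C57BL/6 and 67.6, 35.1, 44.3 and 93.3 in B6C3F1 mice with vehicle, a log2 FC of -1.36 ± 0.26 (FDR 0.00168). With PB they were 130, 138, 117, 192 and 136 against 58.9, 87.5, 65.0, 47.7 and 103 (log2 FC -1.0 ± 0.20, FDR 0.00106). Cyp2c44 was lower in B6C3F1 in both RNA and TSS accessibility, without overlap in either.

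Other genes bearing on the 8 were counted as lists, which were chosen with earlier results of these data known. Of all genes, 0.874% were called with PB in C57BL/6 and 2.00% in B6C3F1 mice, in either direction. Of 14 CAR targets outside the Cyp2c family, 11 rose in C57BL/6 and 9 in B6C3F1 mice and none fell, with Cyp2b10, the classic PB-induced P450, at a log2 FC of 7.07 ± 0.28 and 7.13 ± 0.28, and with Gstm3 (4.04 and 3.85), Cyp2a5 (1.8 and 2.03) and Por, the electron donor of P450 enzymes (1.34 and 1.79). The vehicle-treated and PB-treated mice did not overlap for Cyp2b10 in either strain. Of 17 regulators of liver Cyp2c transcription 1 fell in C57BL/6, Foxa3 (log2 FC -0.62 ± 0.11, FDR 0.00286), and none was called in B6C3F1, where Foxa3 had a log2 FC of -0.37 ± 0.11 (FDR 0.0479). Hnf4a and Nr1i3, the gene of CAR, which were singled out after their values were seen, had log2 FC of -0.03 ± 0.07 (FDR 0.851) and -0.37 ± 0.09 (FDR 0.0159) in B6C3F1 mice.

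Because Cyp2c40 and Cyp2c69 are higher in females, sex-biased genes were counted. Of 10 male-biased genes none was called with PB in either strain. Of 12 female-biased genes 7 were in the table, and 3 rose in both strains and none fell. Of all genes, 0.874% were called in C57BL/6 and 2.00% in B6C3F1 mice. The 3 were Cyp2b13 (log2 FC 7.16 and 8.07), Cyp2b9 (3.49 and 3.63) and Cyp2a4 (1.36 and 0.96). The summed level of the 7 was 25.6 to 43.1 CPM with vehicle and 237 to 393 CPM with PB in C57BL/6 mice, and 14.1 to 63.1 and 156 to 294 CPM in B6C3F1 mice. Of the 7 log2 FC, 6 were positive in C57BL/6 and 4 in B6C3F1 mice. Why the 3 genes rose was not tested.

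Among 15 genes of bile acid synthesis and transport, the pathway of Cyp2c70, none was called with PB in either strain, and the median log2 FC was -0.00 in C57BL/6 and 0.03 in B6C3F1 mice. Among 13 genes of arachidonic acid oxidation, the pathway of Cyp2c44 and Cyp2c40, Cyp1a2 rose in both strains (log2 FC 0.91 and 1.30) and Ephx1 in C57BL/6 (0.59 ± 0.08). Of 9 pericentral hepatocyte genes, which mark the zone around the central vein, 1 rose in each strain (Cyp1a2), and of 8 periportal genes none was called. For these lists too, 0.874% of all genes were called in C57BL/6 and 2.00% in B6C3F1 mice. The pericentral sum was 10279 to 11519 and 10828 to 11869 CPM in C57BL/6 mice and 7256 to 10704 and 9427 to 11768 CPM in B6C3F1 mice with vehicle and PB. Within B6C3F1, vehicle mouse 3 had the lowest pericentral sum and the lowest Cyp2c67, Cyp2c68, Cyp2c40 and Cyp2c70 of its group, and the highest Cyp2c38 and Cyp2c39. The part of zonation, of growth hormone signalling and of cell composition in these values was not tested.

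Genes whose level followed that of a listed gene most closely over the 18 mice were found by Pearson correlation on the log2 scale, a description that carries the strain and treatment groups with it. For 7 of the 8 genes, the closest was Apoe for Cyp2c67 (r = 0.897), Mbl1 for Cyp2c68 (r = 0.955), Crot for Cyp2c69 (r = 0.901), Cldn2 for Cyp2c40 (r = 0.925), Smim10l1 for Cyp2c39 (r = 0.944), C8b for Cyp2c70 (r = 0.917) and Acp1 for Cyp2c44 (r = 0.978). Cyp2c40 was itself among the 3 closest genes to Cyp2c68 (r = 0.902) and to Cyp2c69 (r = 0.897).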

How the data were processed

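RNA-seq and DNase-seq were available for the livers of 18 mice. Per the labels and the study's methods, the authors aligned stranded, ribosomal RNA-depleted paired-end reads to mm10 with STAR 2.4.0f1, kept uniquely mapped reads, counted them by strand over RefSeq genes and deposited CPM after edgeR 3.12.1 TMM scaling, for genes with CPM ≥ 0.4 in at least 3 samples of a group. For DNase-seq, the authors aligned trimmed reads of both strains with Bowtie2 2.1.0 to mm10, called peaks with MACS2 2.1.1.20160309 and deposited a normalized read count (a signal per DHS and mouse) from DiffBind 1.16.3 for DHSs found in at least 3 samples. For both assays, 100% of the values were whole multiples of the value of 1 read within a tolerance of 0.01, so reads per mouse were recovered from them.

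Here CPM was tested with limma 3.58.1 in R 4.3.3 (trend and robust moderation) on log2(CPM + 0.1), with all 18 mice in 1 fit and with CPM ≥ 0.4 in at least 3 mice of a group, which 13838 of 13862 genes passed, the 8 listed genes among them. Normalized counts of 98170 DHSs were tested likewise on log2(normalized count + 1) in the mice of each comparison. Calls needed an FDR (Benjamini-Hochberg) ≤ 0.01 together with |log2 FC| ≥ 0.58. edgeR 4.0.16 and, for RNA, DESeq2 1.42.0 on the recovered reads were alternatives, besides other pseudocounts, filters, scalings, sets of mice and leaving out each mouse. Labels do not say more of the samples than that each is a separate animal, and p-values set a group difference against the spread between animals.

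The 8 genes, the window and the gene lists (inducible Cyp2c, CAR targets, regulators, male-biased, female-biased, bile acid, arachidonic acid, pericentral, periportal, hepatocyte, endothelial, biliary, macrophage and stellate cell genes) were chosen with earlier results of these data known. All 8 genes are named, with DHSs within 1 kb of their TSS, up to 5 called DHSs of the window per comparison with the largest change, and up to 4 called genes per list. Gene models and sequences came from RefSeq on GRCm38.p6. The closest gene to Cyp2c38 by correlation is not reported here.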

Additional observations from a re-analysis of the deposited data

Results flagged for a closer look

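Within groups of 4 or 5 mice, the highest or lowest mouse was compared with the others by Dixon's ratio for 124 groups of the 8 genes and the named DHSs, and 7 groups had a mouse beyond the 95% critical value, where chance gives about 1 in 20. For Cyp2c67, C57BL/6 PB mouse 4 had 105.1 CPM against 146.7 to 162.2 CPM in the other mice of its group, and the same mouse had 93.2 CPM of Cyp2c68 against 126.8 to 137.6 CPM. B6C3F1 vehicle mouse 3 had 294.0 CPM of Cyp2c67 against 518.0 to 556.1 CPM, and C57BL/6 vehicle mouse 1 had 3.53 CPM of Cyp2c39 against 2.23 to 2.35 CPM. Of the DHSs, the one at chr19:39346117-39346652 upstream of Cyp2c39 had a normalized count of 136.3 in B6C3F1 PB mouse 5 against 173.7 to 188.7. The DHS in the Cyp2c40 intron (chr19:39785454-39785797) had 155.2 in B6C3F1 vehicle mouse 1 against 122.9 to 125.5, and the DHS at the Cyp2c44 TSS (chr19:44029186-44029370) had 191.5 in C57BL/6 PB mouse 4 against 117.2 to 138.5.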

How the results depend on the processing

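Of 867 values of the 8 genes under alternative settings, 804 kept their direction and side of the cutoffs, 45 lost and 18 gained a call, and of 2162 values of DHSs 2089 did, 55 lost and 18 gained one. No called value changed sign, while 17 uncalled values of genes and 59 of DHSs did. Of 203 counts of calls, 172 stayed within 1.5 times the reported count. With only the groups compared in the fit, calls among the 8 genes were 1 for PB in C57BL/6, 2 for PB in B6C3F1 and 1 between strains with PB. Pseudocounts of 0.5 and 1 both gave 2 calls between strains with PB. Among the 8 genes DESeq2 called 6 for PB in B6C3F1 and 5 between strains with PB, and edgeR called 5 and 4. Among the 63 DHSs edgeR called 11 between strains with vehicle. With all 18 mice in the DNase fit, calls among the 63 DHSs were 1 for PB in C57BL/6 and 3 in B6C3F1, and at an FDR of 0.05 they were 5 and 2. With each mouse left out in turn there were 2 to 6 calls among the genes for PB in B6C3F1 and 2 to 6 between strains with PB, and among the DHSs 1 to 3 for PB in C57BL/6, 0 to 1 for PB in B6C3F1, 4 to 11 between strains with vehicle and 2 to 10 with PB. The causes were not tested. Animal digits shared between groups did not pair the mice (correlations of -0.122 to 0.0647 in RNA and -0.202 to 0.244 in DNase-seq). With the digit as a replicate block, calls were 3 among the genes for PB in B6C3F1 and 3 among the DHSs between strains with PB. Depth limits Cyp2c69 and Cyp2c40 most, at 0 to 60 reads per mouse.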
